A study of Homo sapiens with 4 samples.

Results

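The genes described here encode regulators of mTORC1, the nutrient-sensing growth kinase complex, and were chosen by symbol: SESN2, SESN3, DDIT4, DEPTOR, TSC1, TSC2, EIF4EBP1, MTOR, RPTOR and RHEB. All 10 symbols were found once each among the 16057 genes of the deposited table. The cells were MM.1S, an established human multiple myeloma line, grown as 1 line without further genetic change named in the labels. They received JG342, an allosteric inhibitor of the HSP70 chaperones, at 350 nM or the solvent DMSO, for 26 h in either case. Total RNA of each group was sequenced in 2 libraries, numbered 1 and 2, which the submitters call biological duplicates. Nothing states that they came from separate cultures, so p-values measure the spread between these libraries, which may be partly technical. Levels are in TPM (transcripts scaled to a fixed total per library), which divides reads by transcript length, so levels of different genes can be set side by side.

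mTORC1 joins the kinase mTOR with the scaffold raptor and, when amino acids and growth signals are present, drives protein synthesis. It is switched on at the lysosome by the small GTPase RHEB. Several proteins hold it back. The TSC1-TSC2 complex turns RHEB off, DDIT4 (also called REDD1) acts through that complex under stress, and sestrins signal amino acid shortage through the GATOR complexes. DEPTOR binds mTOR itself and is known for its high level in many myelomas, where it has been linked to survival of the secreting cell. At the output, EIF4EBP1 encodes 4E-BP1, which blocks the cap-binding protein eIF4E until mTORC1 phosphorylates it. SESN2, DDIT4 and EIF4EBP1 are known as genes that the stress factor ATF4 can switch on.

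After JG342, SESN2, DDIT4, EIF4EBP1 and TSC2 rose and DEPTOR fell. SESN3, TSC1, MTOR, RPTOR and RHEB did not pass the test. The largest change was that of SESN2, whose mean level was 6.73 times as high as in DMSO. DDIT4 reached 3.52 times and EIF4EBP1 2.3 times the DMSO mean, TSC2 1.38 times, and DEPTOR fell to 0.577 of it. The count was 4 of 10 members higher, where 10.8% of the 12042 fitted genes were called higher, and 1 of 10 lower, where 7.62% were called lower (limma adjusted p under 0.05 over all fitted genes). The median log2 fold change was 0.15 over the 10 members and 0.03 over all fitted genes. The members were chosen with such results known, so these counts describe them and do not test the list. Levels are shares of the RNA of the whole culture, in which fewer cells of a type and less RNA per cell cannot be told apart.

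**Figure D1:**
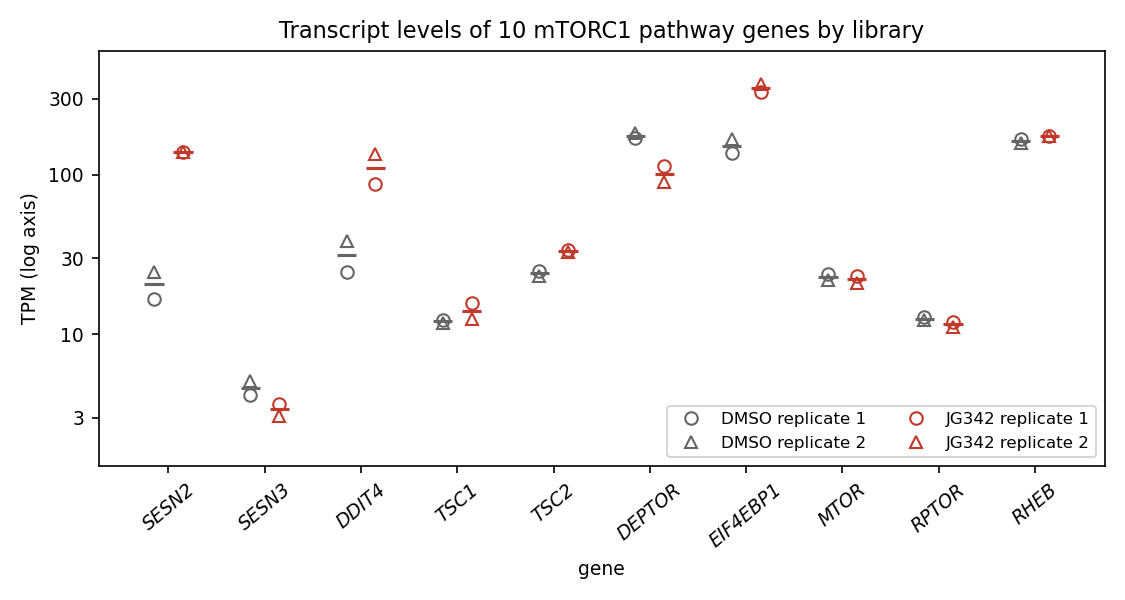
Level of each member in TPM (log axis) in every library; grey marks are DMSO, red marks JG342, circles replicate 1, triangles replicate 2, and short lines the means of 2 libraries. SESN2 lies between 16.6 and 24.8 TPM with DMSO and at 138 and 139 TPM with JG342, while the MTOR values of the treatments overlap.

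The library facts behind these values are few. TPM totals were between 994463 and 994718, and an approximate depth derived from the steps between low values was between 8890000 and 9810000 reads per library. Of the fitted genes, 2221 differed between the treatments (18.4%), 1304 higher and 917 lower. After median scaling of the libraries the split was 967 higher (8.03%) and 1202 lower (9.98%). The 10 plasma cell and myeloma markers were all present at a mean of at least 1 TPM. Their summed level was 15116 and 14838 TPM with DMSO and 10940 and 10251 TPM with JG342. JCHAIN alone stood at 9907 and 10383 TPM with DMSO and at 5732 and 5431 TPM with JG342, and the sum of the other markers was 5209 and 4454 TPM with DMSO and 5209 and 4820 TPM with JG342. JCHAIN and TNFRSF17 were lower in both JG342 libraries than in both DMSO libraries (TNFRSF17 at 761 and 582 against 517 and 463 TPM). IRF4 was higher in both, at 353 and 353 TPM with DMSO and 589 and 615 TPM with JG342. PRDM1 was higher as well, at 176 and 154 TPM against 220.2 and 205 TPM, and the other 6 markers overlapped. Such separation held downward for 28.2% and upward for 34% of all fitted genes. Of the 3 T cell genes measured 2 reached a mean of 1 TPM, and the summed list stood at 9.75 and 12.9 TPM with DMSO and 14.6 and 11.1 TPM with JG342. The myeloid sum, nearly all LYZ, was 37.4 and 46.04 TPM with DMSO and 46.2 and 39.4 TPM with JG342. The erythroid sum, nearly all HBB, was 8.55 and 7.71 TPM against 10.9 and 11.4 TPM, and the part of these marker shifts in the members' changes was not tested. The stromal and epithelial sum lay between 1.43 and 3.03 TPM.

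The promoters of 2 stress-linked brakes that rose together, SESN2 and DDIT4, and that of TSC2, which also rose, are shown because these are the brakes with a changed level and a RefSeq promoter window. Each is the 250 bases before the RefSeq gene start (GRCh38.p14), 5′ to 3′ on the gene's strand, in lower case with searched letters in capitals.
SESN2 (chr1:28259268-28259517, + strand): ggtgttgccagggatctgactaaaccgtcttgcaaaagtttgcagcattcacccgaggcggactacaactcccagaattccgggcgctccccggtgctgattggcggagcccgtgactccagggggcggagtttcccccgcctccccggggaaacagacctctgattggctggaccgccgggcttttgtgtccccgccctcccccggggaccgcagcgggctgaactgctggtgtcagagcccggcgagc
DDIT4 (chr10:72273674-72273923, + strand): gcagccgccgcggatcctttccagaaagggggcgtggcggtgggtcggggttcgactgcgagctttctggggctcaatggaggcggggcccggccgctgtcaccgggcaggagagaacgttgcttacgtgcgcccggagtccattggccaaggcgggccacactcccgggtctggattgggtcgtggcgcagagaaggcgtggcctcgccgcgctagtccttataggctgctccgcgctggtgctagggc
TSC2 (chr16:2047735-2047984, + strand): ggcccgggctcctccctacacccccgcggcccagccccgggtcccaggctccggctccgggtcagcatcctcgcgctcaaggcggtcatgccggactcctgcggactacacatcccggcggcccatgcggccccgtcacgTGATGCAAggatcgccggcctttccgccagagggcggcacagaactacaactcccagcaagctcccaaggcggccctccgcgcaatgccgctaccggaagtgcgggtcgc
The letters searched on both strands were TGATGNAA, the core of the composite element bound by C/EBP and ATF factors, TGACGTCA, the cyclic AMP response element, and GTAAACA, a forkhead element. Windows were found for 8 of the 10 members, all but DEPTOR and EIF4EBP1, and TSC2 has a pair of overlapping windows, of which the first is printed. The only match in the 9 windows was TGATGCAA in that TSC2 window, with its first base at -110 from the start. TGATGNAA was found in 3.14% of 35116 promoter windows of this length, TGACGTCA in 1.65% and GTAAACA in 2.98%. The printed SESN2 and DDIT4 windows hold none of these letters, which says nothing of sites further away.

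Among the brakes, SESN2 encodes a sestrin that senses stress and leucine. SESN2 stood at 16.6 and 24.8 TPM in DMSO replicates 1 and 2, and at 138 and 139 TPM in JG342 replicates 1 and 2. Both JG342 libraries were far above both DMSO libraries, and the DMSO libraries differed from each other more than the JG342 libraries did. SESN2 rose by 2.72 ± 0.17 SE on the log2(TPM + 1) scale (limma adjusted p 4.26e-05), the 21st largest rise of the 12042 fitted genes. The rise was 2.99 in the pair numbered 1 and 2.45 in the pair numbered 2, since DMSO replicate 2 was 0.55 above DMSO replicate 1.

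SESN3, a sestrin controlled by FOXO factors in many cells, was the lowest member. It stood at 4.16 and 5.1 TPM with DMSO and at 3.67 and 3.08 TPM with JG342. The groups did not overlap, but the log2 difference of -0.36 ± 0.18 SE did not pass (limma adjusted p 0.202), and the value was -0.14 in pair 1 and -0.58 in pair 2. These levels correspond to about 26 to 40 reads per library by the approximate depth, the fewest of any member. SESN1, the third sestrin and a known p53 target, was measured as a relative: it stood at 51.9 and 46.5 TPM with DMSO and at 75.6 and 64.6 TPM with JG342. SESN1 rose by 0.50 ± 0.12 SE (limma adjusted p 0.0208). With no filter on low values (limma adjusted p 0.0777) or no mean-variance trend (0.0599) SESN1 lost its call. That call was lost without DMSO replicate 1 (limma adjusted p 0.0523), without DMSO replicate 2 (0.141) and without JG342 replicate 1 (0.0937).

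The makeup of the sestrin family changed with SESN2. The summed TPM of the 3 sestrins was 72.7 and 76.4 with DMSO and 218 and 207 with JG342, a ratio of means of 2.85. SESN2 supplied 22.8% and 32.4% of the sum with DMSO and 63.6% and 67.3% with JG342. SESN1 was therefore the most abundant sestrin transcript in both DMSO libraries, and SESN2 in both JG342 libraries. The exact two-sided permutation test of such a sum over 2 against 2 libraries cannot go below p 0.333, and both quantities gave that value.

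DDIT4, the stress-induced brake that acts through TSC1-TSC2, stood at 24.7 and 38.3 TPM with DMSO and at 87.2 and 135 TPM with JG342. Both JG342 libraries were above both DMSO libraries, and in each treatment replicate 2 was the higher. DDIT4 rose by 1.78 ± 0.23 SE on the log2(TPM + 1) scale (limma adjusted p 0.00181), the 69th largest rise. The shift between the numbers was of like size in both treatments, 0.61 with DMSO and 0.62 with JG342, and the rise within pairs was 1.78 and 1.79. An antisense gene, DDIT4-AS1, overlaps 48.5% of the exonic bases of DDIT4 in GENCODE 29. No label states whether the libraries keep strand, so reads of the 2 genes within that overlap cannot be told apart. The relative DDIT4L was low, at 2.41 and 1.95 TPM with DMSO and 3.86 and 2.9 TPM with JG342, and did not pass (log2 difference 0.46 ± 0.20 SE, limma adjusted p 0.149).

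TSC1 and TSC2 encode the scaffold and the GTPase-activating subunit of the complex that turns RHEB off. TSC2 stood at 25.0 and 23.1 TPM with DMSO and at 33.8 and 32.6 TPM with JG342, with no overlap. TSC2 rose by 0.45 ± 0.12 SE (limma adjusted p 0.0281), with 0.42 in pair 1 and 0.48 in pair 2. This is the one member whose call did not hold throughout. Its limma adjusted p was 0.0848 without DMSO replicate 1, 0.171 without DMSO replicate 2, 0.0895 without JG342 replicate 1 and 0.0568 without JG342 replicate 2, and 0.0667 with no filter on low values and 0.0540 with no mean-variance trend.

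TSC1 stood at 12.3 and 11.8 TPM with DMSO and at 15.7 and 12.4 TPM with JG342. JG342 replicate 1 was the high library, and JG342 replicate 2 lay just above the DMSO values. The log2 difference of 0.20 ± 0.15 SE did not pass (limma adjusted p 0.388; 95% interval -0.14 to 0.55). The ratio of TSC2 to TSC1 transcripts was 2.03 and 1.97 with DMSO and 2.14 and 2.63 with JG342. The third subunit, TBC1D7, had a log2 difference of 0.14 ± 0.15 SE (limma adjusted p 0.545), with 33.9 and 45.3 TPM with DMSO and 41.04 and 45.7 TPM with JG342. Summed over the 3 subunits, the level was 71.2 and 80.3 TPM with DMSO and 90.5 and 90.7 TPM with JG342 (exact permutation p 0.333, the smallest possible).

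DEPTOR, the inhibitor that binds mTOR, moved the other way. It was the most abundant member in the DMSO libraries, with 169 and 183 TPM, and stood at 114 and 89.6 TPM with JG342. Both JG342 libraries were below both DMSO libraries. DEPTOR fell by 0.80 ± 0.12 SE on the log2(TPM + 1) scale (log2 fold change -0.80, limma adjusted p 0.004), the 114th largest fall of the 12042 genes. The change was -0.57 in pair 1 and -1.02 in pair 2. At 102 ± 16.9 TPM (SD, n = 2) after JG342 it remained higher than MTOR at 22.1 ± 1.68 TPM. The ratio of DEPTOR to MTOR transcripts was 7.1 and 8.34 with DMSO and 4.86 and 4.28 with JG342. A long noncoding gene on the opposite strand overlaps 18% of the exonic bases of DEPTOR. Of the 10 plasma cell and myeloma markers, 2 (JCHAIN and TNFRSF17) were lower in the same libraries and 2 (IRF4 and PRDM1) higher. Of all fitted genes, 28.2% had both JG342 values below both DMSO values and 34% had both above. The part of these markers in the DEPTOR difference was not tested.

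**Figure D2:**
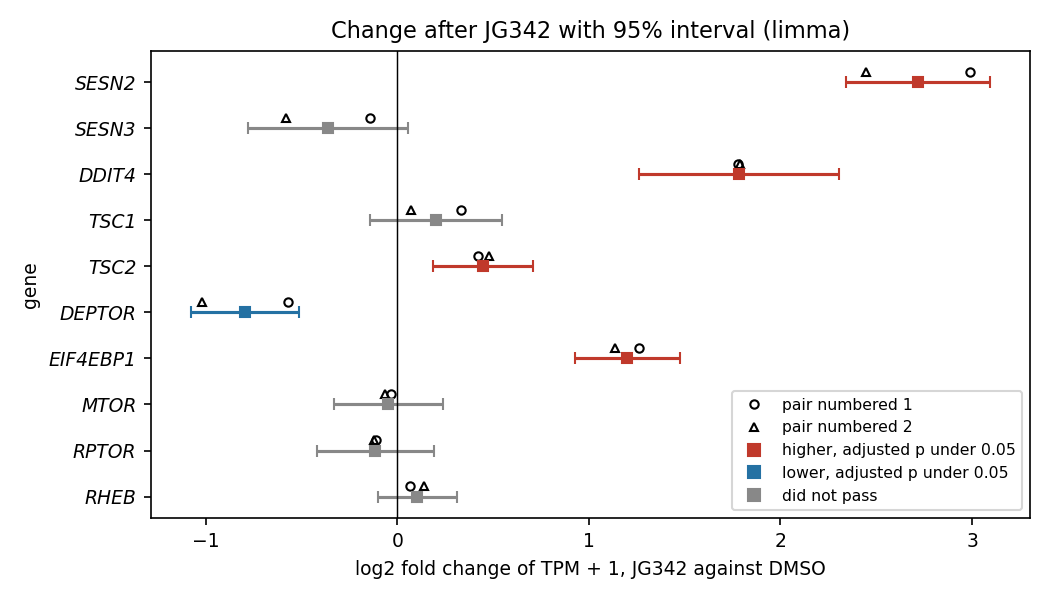
Log2 fold change of TPM + 1 between JG342 and DMSO for each member; squares are limma estimates with 95% intervals, circles and triangles the values within the pairs numbered 1 and 2, red marks higher and blue lower at an adjusted p under 0.05. SESN2, DDIT4, EIF4EBP1 and TSC2 lie above 0 and DEPTOR below it, and the intervals of SESN3, TSC1, MTOR, RPTOR and RHEB include 0.

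EIF4EBP1 encodes the translation repressor that active mTORC1 phosphorylates and so disables. It stood at 136 and 168 TPM with DMSO and at 329 and 372 TPM with JG342. The gap between the groups was wider than the spread inside either, and replicate 2 was higher than replicate 1 in both treatments. EIF4EBP1 rose by 1.2 ± 0.12 SE (limma adjusted p 0.000512), the 179th largest rise, with 1.26 in pair 1 and 1.14 in pair 2.

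Its relatives EIF4EBP2 and EIF4EBP3 did not pass. EIF4EBP2 stood at 53.6 and 54.5 TPM with DMSO and at 50.9 and 47.0 TPM with JG342 (log2 difference -0.14 ± 0.11 SE, limma adjusted p 0.382). EIF4EBP3 lay between 3.08 and 8.35 TPM and shares sequence with the readthrough gene ANKHD1-EIF4EBP3. EIF4EBP1 thus made up 70.6% and 74.0% of the summed 4E-BP transcripts with DMSO and 84.7% and 88.1% with JG342. The target of these repressors, EIF4E, stood at 29.2 and 32.5 TPM with DMSO and at 25.6 and 23.8 TPM with JG342, a log2 difference of -0.31 ± 0.12 SE (limma adjusted p 0.107). EIF4E has a processed pseudogene that matches 58.1% of its transcript at 99.5% identity. The ratio of summed 4E-BP to EIF4E transcripts was 6.62 and 7.01 with DMSO and 15.2 and 17.8 with JG342 (exact permutation p 0.333, the smallest possible). Transcript ratios are not protein ratios, and phosphorylation was not measured.

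**Figure D3:**
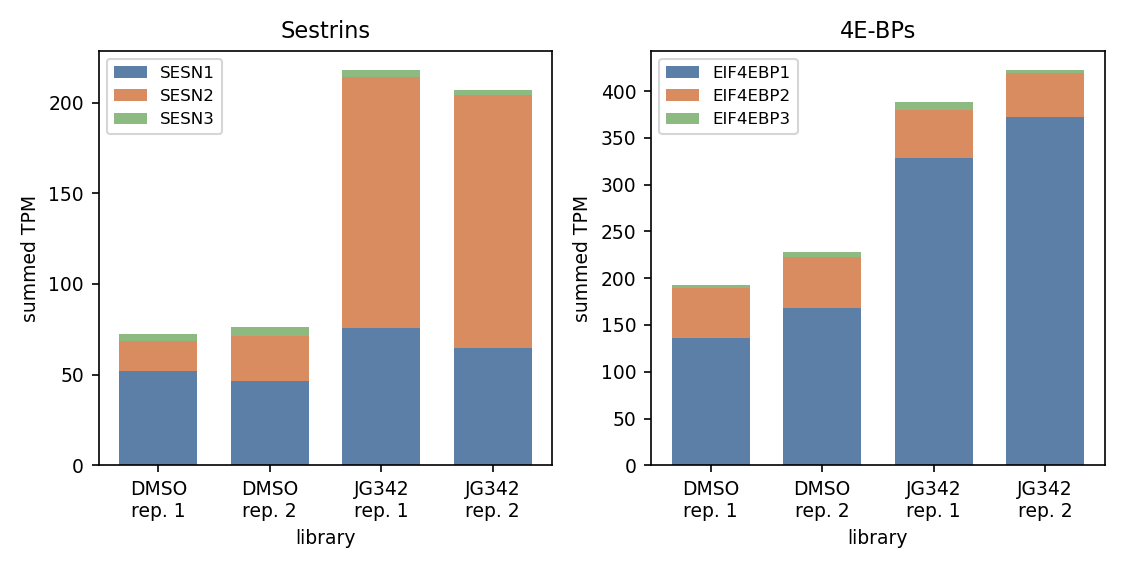
Summed TPM of the 3 sestrin genes (left) and the 3 4E-BP genes (right) in each library, with the part of each gene as a coloured segment. SESN2 makes up 22.8% and 32.4% of the sestrin sum with DMSO and 63.6% and 67.3% with JG342, and EIF4EBP1 70.6% and 74.0% against 84.7% and 88.1% of the 4E-BP sum.

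The members that build or switch on the kinase showed small differences that did not pass. MTOR, the kinase, stood at 23.9 and 21.9 TPM with DMSO and at 23.3 and 21.0 TPM with JG342, and the groups overlapped. The log2 difference of MTOR was -0.05 ± 0.13 SE (limma adjusted p 0.83), with a 95% interval from -0.33 to 0.24. RPTOR, the scaffold raptor, stood at 12.9 and 12.2 TPM with DMSO and at 11.9 and 11.2 TPM with JG342, with both JG342 values below both DMSO values. The log2 difference of RPTOR was -0.11 ± 0.14 SE (limma adjusted p 0.593), with an interval from -0.42 to 0.19. RHEB, the activating GTPase, stood at 168 and 159 TPM with DMSO and at 176 and 175 TPM with JG342. The log2 difference of RHEB was 0.10 ± 0.09 SE (limma adjusted p 0.457), with an interval from -0.10 to 0.31. RHEB has processed pseudogenes that match 26.8% and 28.9% of its transcript at over 95% identity, so its level carries that uncertainty. These intervals leave room for changes in either direction. The lower limit of RPTOR, -0.42, is near in size to the TSC2 rise of 0.45.

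Values of the treatments did not overlap for 9 of the 10 members, all but MTOR. Such separation held for 62.1% of all fitted genes, and with 2 libraries a group it carries little weight.

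The order of the levels changed. With DMSO the members ran from DEPTOR at 176 TPM through RHEB at 163, EIF4EBP1 at 152, DDIT4 at 31.5, TSC2 at 24.1, MTOR at 22.9, SESN2 at 20.7, RPTOR at 12.6 and TSC1 at 12.04 to SESN3 at 4.63 TPM. In that order RHEB and EIF4EBP1 overlapped between libraries, as did DDIT4 with TSC2, TSC2 with MTOR, MTOR with SESN2 and RPTOR with TSC1. With JG342 EIF4EBP1 was highest at 350 TPM, followed by RHEB at 176, SESN2 at 139, DDIT4 at 111 and DEPTOR at 102 TPM. Of those neighbours only DDIT4 and DEPTOR overlapped between libraries. Below them came TSC2 at 33.2, MTOR at 22.1, TSC1 at 14.1, RPTOR at 11.5 and SESN3 at 3.38 TPM, with no overlap between neighbours. By mean level DEPTOR thus went from the first place to the fifth and SESN2 from the seventh to the third. Single libraries differed from this order. In DMSO replicate 2 SESN2 (24.75 TPM) was above TSC2 (23.15) and MTOR (21.94). In JG342 replicate 1 DEPTOR (113.54 TPM) was above DDIT4 (87.23).

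For the 5 members past the threshold, the genes with the most similar pattern were sought among fitted genes averaging 5 TPM or more. Likeness was the root mean square difference between log2(TPM + 1) values centred on each gene's mean, over the 4 libraries. For SESN2 the nearest were ARHGAP9 at 0.11, ADM2 and CEBPB, the last a bZIP transcription factor that stood at 16.9 and 31.3 TPM with DMSO and at 147 and 170 TPM with JG342. For DDIT4 they were SERPINI1 at 0.14, PHGDH, the entry enzyme of serine synthesis, and PPP1R15A, the stress-induced regulator of the eIF2 phosphatase. PPP1R15A stood at 47.6 and 61.5 TPM with DMSO and at 197 and 258 TPM with JG342. For EIF4EBP1 they were ISL2 at 0.02, RNF187 and AIG1, with rises of 1.17, 1.23 and 1.15. For DEPTOR they were RASSF2 at 0.03, the proteasome subunit gene PSMD1 and the chromatin gene DEK, with log2 fold changes of -0.80, -0.77 and -0.72. For TSC2 they were FBXW8 at 0.01, RCOR3 and WDR13, with log2 differences of 0.45, 0.45 and 0.44. FBXW8 did not pass the test (limma adjusted p 0.066). RCOR3 and WDR13 passed (limma adjusted p 0.0196 and 0.0204), but not with no mean-variance trend (0.0548 and 0.0560). With 4 libraries many genes share a pattern of 2 levels, so this likeness is a description.

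The rest of the pathway was followed in a list of 80 other genes, of which 79 were in the table and 77 were fitted. Among them 8 were called higher, or 10.4%, and 4 lower, or 5.19%, close to the 10.8% and 7.62% of all fitted genes. At an unadjusted p under 0.05, 18.7% of all fitted genes were higher and 14.9% lower. Their median log2 fold change was 0.08, against 0.03 over all fitted genes. The count of 12 rose to 25 when the pairing of libraries by number was modelled as a block (34.9% of all fitted genes passed) and to 21 with that block and median scaling (35.1%). It was 3 without DMSO replicate 1 (8.69% of all genes), 2 without DMSO replicate 2 (6.37%), 5 without JG342 replicate 1 (13.6%) and 10 without JG342 replicate 2 (15.2%). With no filter on low values it was 2 (5.16% of 16057 genes), and with no mean-variance trend 7 (12.5%).

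Of the sensors and the lysosomal Rag and Ragulator platform, 5 of 19 genes were called higher, or 26.3% against 10.8% of all fitted genes, and 0 lower against 7.62%, with a median of 0.25. At an unadjusted p under 0.05 in limma, 7 were higher and 1 lower. Whether this share differs from that of all genes was not tested. The Rag GTPases recruit mTORC1 to the lysosome. RRAGC stood at 30.2 and 31.5 TPM with DMSO and at 47.7 and 41.4 TPM with JG342, and rose by 0.51 ± 0.12 SE (limma adjusted p 0.0182). Another gene, a processed transcript on the same strand, overlaps 43.3% of the exonic bases of RRAGC, so its level carries that uncertainty. RRAGD, a paralog of RRAGC, stood at 44.3 and 37.0 TPM with DMSO and at 73.8 and 55.9 TPM with JG342, and rose by 0.65 ± 0.15 SE (limma adjusted p 0.0188). RRAGB rose by 0.68 ± 0.16 SE (limma adjusted p 0.0205) from a lower level, 6.81 and 6.01 TPM with DMSO against 11.9 and 9.83 TPM with JG342. LARS, the cytosolic leucyl-tRNA synthetase, stood at 65.2 and 77.7 TPM with DMSO and at 88.8 and 110.5 TPM with JG342, and rose by 0.47 ± 0.13 SE (limma adjusted p 0.041). The other called gene of the group is SESN1. RRAGA, at 15.6 and 13.4 TPM with DMSO and 16.7 and 18.4 TPM with JG342, did not pass (log2 difference 0.26 ± 0.14 SE, limma adjusted p 0.227), and neither did any of the 5 Ragulator genes LAMTOR1 to LAMTOR5. RRAGB, LARS and RRAGA were singled out after their values had been seen.

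The calls of RRAGC, RRAGD, RRAGB and LARS were each lost in some fits without 1 library, where fewer libraries enter. With no filter on low values each call was lost too (limma adjusted p 0.0633, 0.097, 0.0838 and 0.131). With no mean-variance trend RRAGD (0.0572) and LARS (0.0999) did not pass. The direction held whichever library was left out. Log2 fold changes then ran from 0.41 to 0.61 for RRAGC and from 0.45 to 0.85 for RRAGD. They ran from 0.55 to 0.80 for RRAGB and from 0.32 to 0.63 for LARS. The limma adjusted p of RRAGC was 0.0955 without DMSO replicate 1, 0.0826 without DMSO replicate 2 and 0.0827 without JG342 replicate 1. That of RRAGD was 0.125 without DMSO replicate 2 and 0.0735 without JG342 replicate 1. RRAGB had 0.0618 without DMSO replicate 1, 0.13 without DMSO replicate 2 and 0.0859 without JG342 replicate 1. LARS had 0.217 without DMSO replicate 1, 0.0675 without DMSO replicate 2 and 0.166 without JG342 replicate 2, and also missed the threshold after median scaling (0.0955) and quantile normalization (0.0556).

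**Figure D4:**
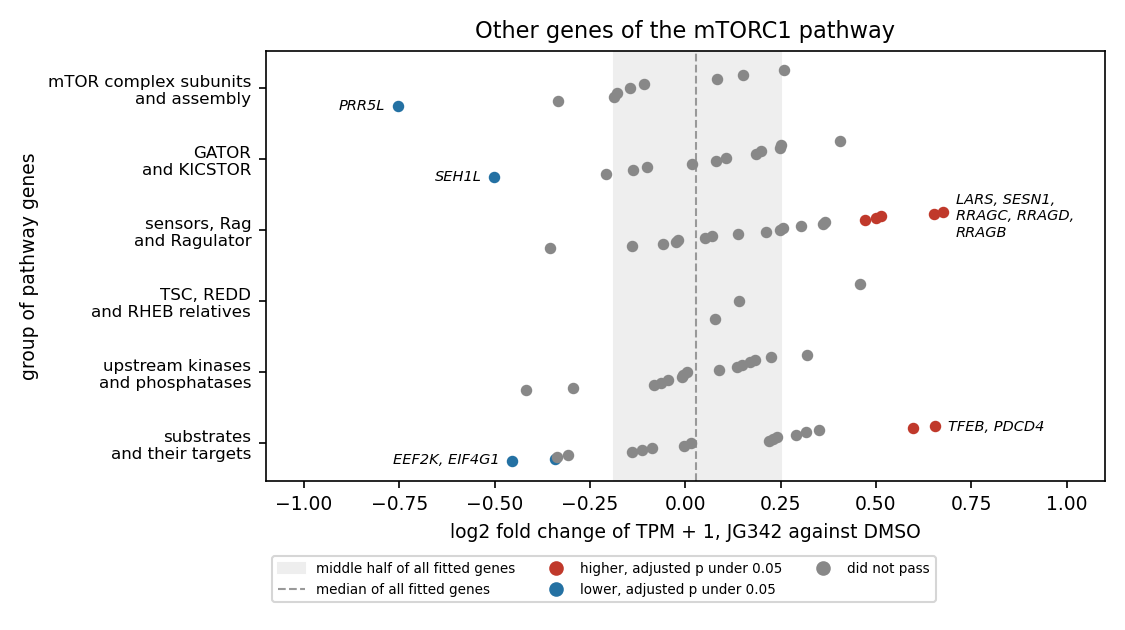
Log2 fold change of TPM + 1 between JG342 and DMSO for 75 of the 77 fitted genes of the pathway list in 6 groups, 1 point per gene; red marks higher and blue lower at a limma adjusted p under 0.05, and the grey band and dashed line give the interquartile range and median of all fitted genes. The 5 called Rag and sensor genes lie between 0.47 and 0.68, and the lowest point is PRR5L at -0.75.

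Upstream of TSC2, the growth-signal kinase genes AKT1 and AKT2 had log2 differences of -0.06 ± 0.10 SE and 0.01 ± 0.11 SE, neither past the threshold (limma adjusted p 0.704 and 0.98). PRKAA1, the catalytic subunit of the energy sensor AMPK, had -0.08 ± 0.11 SE (limma adjusted p 0.652). PIK3R1 and PRKAG2, of the same group, had -0.42 ± 0.17 SE and -0.29 ± 0.12 SE, neither past the threshold (limma adjusted p 0.118 and 0.131). AKT1, AKT2, PRKAA1, PIK3R1 and PRKAG2 were singled out after their values had been seen. Of the 17 fitted genes of this group, 10 had a log2 difference above 0 and 7 below it, with a median of 0.04. The results of some of these genes are not reported here.

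Of the 17 fitted substrates and their targets, 2 were called higher and 2 lower, 11.8% in each direction, near the 10.8% and 7.62% of all fitted genes. PDCD4, a translation repressor degraded downstream of mTORC1, rose by 0.66 ± 0.10 SE (limma adjusted p 0.00425), from 43.8 and 47.5 TPM with DMSO to 71.7 and 73.2 TPM with JG342. PDCD4 passed under all 13 alternatives, and BBIP1 on the opposite strand overlaps 35.5% of its exonic bases. TFEB is the lysosome gene regulator that mTORC1 keeps out of the nucleus. TFEB rose by 0.60 ± 0.14 SE (limma adjusted p 0.0209), from 9.67 and 11.2 TPM to 17.1 and 15.4 TPM. With no filter on low values TFEB did not pass (limma adjusted p 0.0778). Its call was lost without DMSO replicate 1 (limma adjusted p 0.129), without DMSO replicate 2 (0.0651) and without JG342 replicate 1 (0.0749). EIF4G1, the cap-complex scaffold, fell by 0.34 ± 0.10 SE (limma adjusted p 0.0399), and did not pass with quantile normalization (0.0602). EEF2K, the kinase of elongation factor 2, fell by 0.45 ± 0.13 SE (limma adjusted p 0.0405). Neither passed with no filter on low values (limma adjusted p 0.0916 and 0.0968) or no mean-variance trend (0.114 and 0.0644). Without any 1 of the 4 libraries neither passed, with limma adjusted p from 0.0738 (DMSO replicate 1) to 0.266 (DMSO replicate 2) for EIF4G1 and from 0.0539 (JG342 replicate 1) to 0.248 (DMSO replicate 2) for EEF2K. RPS6KB1, the S6 kinase, had a log2 difference of -0.003 ± 0.12 SE (limma adjusted p 0.99), and pseudogenes match 44.2% and 62.5% of its transcript. EIF4G1, EEF2K and RPS6KB1 were singled out after their values had been seen.

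Of the 9 other subunits and assembly factors of the mTOR complexes, PRR5L fell and 0 rose (limma; at an unadjusted p under 0.05, 2 lower and 0 higher). The share of 11.1% lower is near the 7.62% of all fitted genes. PRR5L, an mTORC2-bound protein, stood at 2.95 and 3.71 TPM with DMSO and at 1.66 and 1.46 TPM with JG342. PRR5L fell by 0.75 ± 0.20 SE (limma adjusted p 0.03), but did not pass with no filter on low values (0.0691). Its call was lost without each of the 4 libraries, with limma adjusted p between 0.0521 (JG342 replicate 1) and 0.184 (DMSO replicate 2). RICTOR, the scaffold of mTORC2, stood at 13.4 and 13.6 TPM with DMSO and at 14.7 and 14.1 TPM with JG342 (log2 difference 0.08 ± 0.13 SE, limma adjusted p 0.691), and was likewise singled out afterwards. Of the 12 genes of GATOR1, GATOR2 and KICSTOR, the complexes through which sestrins act on the Rag GTPases, SEH1L fell and 0 rose (limma; at an unadjusted p under 0.05, 1 in each direction). The share of 8.33% lower is near the 7.62% of all fitted genes. SEH1L, shared with the nuclear pore, stood at 57.5 and 54.8 TPM with DMSO and at 41.6 and 37.3 TPM with JG342. SEH1L fell by 0.50 ± 0.11 SE (limma adjusted p 0.0154), but did not pass with no filter on low values (0.0554). It missed the threshold without DMSO replicate 1 (limma adjusted p 0.0935), without DMSO replicate 2 (0.0756) and without JG342 replicate 2 (0.0588).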

How the data were processed

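RNA sequencing of 4 MM.1S libraries was analysed, 2 per treatment. The authors deposited 1 value per gene and library, taken here to be TPM from the near-constant library totals. HISAT2 2.0.4, Bowtie2 2.2.5 and RSEM 1.2.12 are named in the submitters' processing notes, and the genome build and annotation are not given in the sources used here. Deposited TPM values are not counts and record no depth. They were transformed to log2(TPM + 1), and the 12042 of 16057 genes averaging 1 TPM or more were fitted with limma 3.58.1 in R 4.3.3 (eBayes with a mean-variance trend, treatment as the only term, two-sided, Benjamini-Hochberg over all fitted genes, threshold 0.05). The 2 residual degrees of freedom were joined by 6.89 prior ones. The members, the pathway list and the tests were chosen with earlier results of these data known.

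The named genes are all 10 members and the 3 genes nearest in pattern to each called member. In each pathway group up to 2 called genes with the smallest p are named. SESN1, DDIT4L, TBC1D7, EIF4EBP2, EIF4EBP3 and EIF4E are named as parts of the family sums and ratios. LAMTOR1 to LAMTOR5 are named without values, and other pathway genes are said to be singled out. Markers of plasma, T, myeloid, erythroid, and stromal and epithelial cells were summed. Replicate numbers occur in both treatments and same-numbered libraries share a description prefix, so the numbers were taken to pair the libraries; their deviations from the group means correlated at a Pearson r of 0.27 over 12042 genes, which are not independent. Alternatives were the replicate block, scaling, the pseudocount, the filter, the variance trend and leaving out each library. Approximate reads came from the most frequent value of TPM times transcript length, using values of 0.5 TPM or less of transcripts no shorter than 1500 nt. Transcript lengths, overlaps and copies (BLAST 2.17.0, at least 95% identity over 20%) came from GENCODE 29, and promoters from RefSeq. Strand is not given in the sources used here. ATG13 was not analysed here, and the results of some listed genes are not reported here.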

Additional observations from a re-analysis of the deposited data

How the results depend on the processing

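Of the members, SESN2, DDIT4, EIF4EBP1 and DEPTOR kept their direction and their call under all 13 alternatives, with log2 fold changes from 2.44 to 2.99, 1.47 to 2.1, 1.05 to 1.35 and -0.97 to -0.63 and a highest limma adjusted p of 0.0471 (DEPTOR). TSC2 kept its direction, from 0.38 to 0.50, and lost its call in 6 alternatives, so the count of higher members was 3 in those and 4 in the other 7. MTOR changed sign without DMSO replicate 1 (0.01) and without JG342 replicate 2 (0.027); leaving out 1 library gave -0.12 to 0.027. SESN3 could not be fitted at a minimum mean of 5 TPM. With the replicate number as a block, where same-numbered deviations correlated at 0.27, the block changed no member's call; all genes past the threshold numbered 4207, and 4226 with median scaling in addition, against 2221, and pathway genes 25 and 21 against 12. The block left 1 residual degree of freedom, and its prior was infinite, or 9.72 degrees of freedom with median scaling. With no filter on low values 828 genes and 2 pathway genes passed, and with no mean-variance trend 7 pathway genes. Leaving out 1 library gave 767 to 1825 genes and 2 to 10 pathway genes; fewer libraries enter these fits, and the lone library is assumed to vary like the other group. The cause of the other shifts was not tested. The log2 change of the summed sestrins went from 1.51 to 1.45 with median scaling. Without 1 library the change of the SESN2 share ran from 1.01 to 1.52, that of the summed TSC complex genes from 0.17 to 0.35 and that of the TSC2 to TSC1 ratio from 0.10 to 0.39. Depth is known only approximately, and SESN3 has the fewest reads behind it.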
